A study of Mus musculus with 21 samples.

Results

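The nuclear-encoded subunits of the oxidative phosphorylation complexes were followed through 21 RNA-seq libraries of mouse aortic valve. Genes were taken by symbol: Nduf subunits of the A, B, C, S and V series, Sdha to Sdhd, the Uqcr genes with Cyc1, the Cox4 to Cox8 genes and the Atp5 genes, without pseudogene symbols. That gave 84 of the 20872 genes listed, of which 37 belong to complex I, 4 to complex II, 8 to complex III, 18 to complex IV and 17 to complex V. The rule by name also took Cox4nb, which RefSeq calls Emc8 and which is not a subunit, and Atp5s and Atp5sl, which RefSeq calls Dmac2l and Dmac2. Dmac2 is known as an assembly factor of complex I. Counts of subunits below include these genes by name, with Atp5s and Atp5sl in complex V. Ndufa4, counted here with complex I by its name, is now placed in complex IV. Expression was read as FPKM, fragments per kilobase of transcript, scaled to the mapped total of the library. A gene was tested where its mean over all libraries was 1 FPKM or more, which 83 of the 84 passed. Cox7b2 was left out with a mean of 0.720 FPKM.

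Every mouse was a generation 2 Terc-/- animal, without the RNA component of telomerase. The groups were N1het stenosis XCT790 (3 libraries, narrowed valves after the compound), N1het stenosis (3, narrowed valves after solvent), N1het healthy XCT790 (5), N1het healthy (6, solvent) and WT (4, healthy valves after solvent). N1het mice were N1+/-, with 1 intact copy of Notch1, and WT mice were N1+/+ but equally without Terc. XCT790 is an inverse agonist of ERRα, an orphan nuclear receptor known for its control of genes for mitochondrial respiration. The compound was given daily into the peritoneum at 5 mg/kg/day for 4 weeks, starting at 4 weeks of age. The valve as a whole was lysed, so all of its cell types share a library, and the labels do not say that each library is a separate animal.

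Oxidative phosphorylation passes electrons from NADH through complex I, and from succinate through complex II, by way of ubiquinone to complex III, cytochrome c and complex IV, which reduces oxygen. Complexes I, III and IV pump protons out of the mitochondrial matrix, and complex V, the ATP synthase, uses the returning protons to make ATP. Most subunits are encoded in the nucleus, among them the catalytic ones of complexes II and V. The core of complex IV and parts of I, III and V are encoded by mitochondrial DNA. Several subunits of complex IV exist as a widely expressed form and a form of heart and skeletal muscle. ERRα, its partner PGC-1 and the factors NRF1, GABP and YY1 are known regulators of nuclear subunit genes.

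The promoters of these genes were searched for the binding motifs of those factors, since XCT790 acts on ERRα and the muscle forms turned out to vary most between libraries. RefSeq windows of 250 bases before to 50 bases after the start, on build GRCm38.p6, were found for 68 of the 84 genes, and the other 16 included Atp5a1, Cox4i1, Cox4i2, Cox4nb, Cox6a2, Cox6c, Cyc1, Ndufa2, Ndufa4l2, Ndufb9, Ndufs1, Sdhc, Uqcrb, Uqcrc2 and Uqcrq. Below, capitals mark the motif match on either strand, and each sequence runs 5′ to 3′ on the strand of its gene. The ERR element TCAAGGTCA, read here as its reverse complement TGACCTTGA, stood at base -52 of Atp5g3, which encodes the membrane ring subunit c of complex V (chr2:73911277-73911576, minus strand), and at base 37 of Sdhd, a membrane anchor of complex II (chr9:50603800-50604099, minus strand). The muscle isoform Cox8b (chr7:140900397-140900696, minus strand) held the myogenic E-box CAGCTG at bases -19 and 17. Its widely expressed partner Cox8a (chr19:7217567-7217866, minus strand) held no E-box and held the GABP motif CCGGAAGT, read as ACTTCCGG, at bases -6 and 32.
Atp5g3: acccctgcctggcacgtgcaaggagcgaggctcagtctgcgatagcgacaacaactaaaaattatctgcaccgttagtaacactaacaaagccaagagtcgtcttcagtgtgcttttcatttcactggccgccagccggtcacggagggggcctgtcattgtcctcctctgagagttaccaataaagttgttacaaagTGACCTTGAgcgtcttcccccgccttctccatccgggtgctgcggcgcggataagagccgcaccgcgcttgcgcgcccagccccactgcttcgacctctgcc
Sdhd: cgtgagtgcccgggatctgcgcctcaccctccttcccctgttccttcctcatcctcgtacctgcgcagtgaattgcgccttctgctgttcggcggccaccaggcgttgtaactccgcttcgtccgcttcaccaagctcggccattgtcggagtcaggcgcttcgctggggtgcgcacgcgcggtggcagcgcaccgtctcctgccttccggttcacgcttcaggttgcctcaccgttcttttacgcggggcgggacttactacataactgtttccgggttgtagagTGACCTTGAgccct
Cox8b: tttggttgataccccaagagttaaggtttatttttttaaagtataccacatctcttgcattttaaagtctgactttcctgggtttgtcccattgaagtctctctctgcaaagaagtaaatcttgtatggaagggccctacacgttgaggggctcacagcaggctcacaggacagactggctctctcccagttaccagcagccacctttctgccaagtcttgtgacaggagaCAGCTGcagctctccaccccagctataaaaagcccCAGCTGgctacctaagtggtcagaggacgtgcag
Cox8a: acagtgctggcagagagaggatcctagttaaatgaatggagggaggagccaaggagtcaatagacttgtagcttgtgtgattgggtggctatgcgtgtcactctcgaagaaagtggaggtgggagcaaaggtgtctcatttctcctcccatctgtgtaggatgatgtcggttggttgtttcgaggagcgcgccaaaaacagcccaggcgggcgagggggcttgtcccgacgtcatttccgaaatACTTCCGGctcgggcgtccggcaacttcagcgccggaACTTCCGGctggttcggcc

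Of the 68 promoters, 2 (2.94%) held the ERR element, against 0.466% of all 27025 genes with such a window. The NRF1 motif GCGCATGCG was found in 8 (11.8%, against 1.95% of all), in Atp5g2, Atp5k, Atp5l, Cox6a1, Ndufa11, Ndufa8, Uqcr and Uqcrc1. The YY1 motif AAGATGGCG was also found in 8 (11.8%, against 1.64%), in Atp5j, Atp5j2, Atp5sl, Ndufa9, Ndufc1, Ndufs4, Ndufs6 and Ndufs7. The GABP motif stood in 5 (7.35%, against 4.31%), in Atp5h, Cox8a, Ndufs3, Uqcr and Uqcrh. The E-box stood in 6 (8.82%, against 18.3%), in Atp5b, Cox8b, Ndufa8, Ndufb10, Ndufs5 and Ndufv2, and not in the window of the muscle form Cox7a1. Both strands were read and exact letters were required. None of the 5 motifs contains another. A match describes these letters and does not show binding.

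The libraries held 8.4 to 27.3 megareads, as recovered from the FPKM steps. A set of 6 held over 16 megareads and is called deep here: N1het stenosis XCT790 2, N1het healthy XCT790 1 and 2, N1het healthy 1 and 4, and WT 1, with none in N1het stenosis. Reads on mitochondrially encoded genes made up 0.0581% to 0.521% of these 6 libraries and 0.851% to 8.40% of the other 15. In 6 libraries the agent field of the labels contradicted the title, which was followed here: N1het healthy XCT790 1, 2 and 3 carry solvent in that field, and N1het stenosis 1, 2 and 3 carry XCT790. Notch1 averaged 26.8 ± 7.75 FPKM in N1het stenosis XCT790, 24.9 ± 3.45 in N1het stenosis, 32.4 ± 8.91 in N1het healthy XCT790, 35.6 ± 9.37 in N1het healthy and 33.9 ± 8.93 in WT libraries (SD). Its groups overlapped, and the sources used here do not say whether the altered allele still gives reads, so this does not check the genotype labels. All 8 markers of valve interstitial cells and fibroblasts, such as Dcn and Vim, were present in every library.

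Heart muscle markers, counted over a list of 12 genes such as Myh6, Tnnt2 and Actc1, separated the libraries. Their mean log2(FPKM + 1) was 5.36 to 7.24 in 7 libraries (N1het stenosis XCT790 1, N1het stenosis 2, N1het healthy XCT790 5, N1het healthy 2, 5 and 6, and WT 4) and 1.08 to 3.63 in the other 14. The summed level of the 12 ran from 165 to 2153 FPKM in N1het stenosis XCT790, from 97.9 to 4205 in N1het stenosis, from 111 to 2068 in N1het healthy XCT790, from 186 to 5000.02 in N1het healthy and from 42.9 to 3493 in WT libraries. The atrial markers Nppa and Myl7 were listed at 0 in 10 and 2 libraries, Mybpc3 in 1, and the other 9 in none. Ucp1, the uncoupling protein of brown fat, was at 5.57 FPKM in N1het healthy 6, 4.36 in N1het healthy XCT790 5, 0.0908 in WT 3 and listed at 0 in the other 18. In whole-tissue libraries fewer cells of a type and less RNA per cell cannot be told apart.

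The subunits were abundant. Over the 83 tested the median of the mean levels was 61.1 FPKM, against 8.16 FPKM over all 14966 genes tested. 80 of the 84 averaged over 10 FPKM and 29 over 100 FPKM, and 79 were above 0 in every library. A tested subunit had a median of 967 reads in a library, and 1.61% of the 1743 values rested on under 10 reads. FPKM is a level per length, and across the 83 genes it went with short transcripts (Spearman's rho -0.52 with the length the FPKM steps imply, 323 to 5328 bases), a description across genes of the same libraries.

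By complex, the median of the mean levels was 48.8 FPKM in complex I, 40.8 in II, 61.5 in III, 131 in IV and 98.6 in V. In complex I the highest mean was that of Ndufa13, an accessory subunit also known as GRIM-19, at 233 FPKM, and the lowest that of Ndufa4l2, a hypoxia-induced relative of Ndufa4, at 6.24 FPKM. In complex II the membrane anchor Sdhd led at 57.4 FPKM and the other anchor Sdhc was last at 24 FPKM. In complex III the small subunit Uqcr reached 147 FPKM, while Uqcrfs1, the Rieske iron-sulphur protein, averaged 26.9 FPKM. Complex IV had the highest of all, Cox6a1 at 393 FPKM. In complex V Atp5l, subunit g of the membrane part, averaged 318 FPKM. The lowest mean there was 4.23 FPKM for Atp5sl, which is counted in complex V by its name only. The catalytic beta subunit Atp5b averaged 166 FPKM.

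The spread over the 21 libraries differed far more than the complex did. The standard deviation of log2(FPKM + 1) had a median of 0.57 over all members. It was widest in the muscle forms of complex IV, at 2.71 for Cox6a2, 2.48 for Cox7a1 and 2.28 for Cox8b, followed by Cox6b2, the testis form of Cox6b1, at 1.76. It was narrowest for Atp5j, coupling factor 6 of the ATP synthase, at 0.31, followed by Atp5d at 0.316 and Cox8a at 0.324. The corresponding extremes were Ndufa4l2 (1.27, the widest) in complex I, Sdhc (0.58) and Sdha (0.44) in complex II, Uqcrc1 (0.73) and Uqcrh (0.48) in complex III, and Atp5s (1.46) and Atp5j in complex V. Atp5s is counted in complex V by its name.

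**Figure D1:**
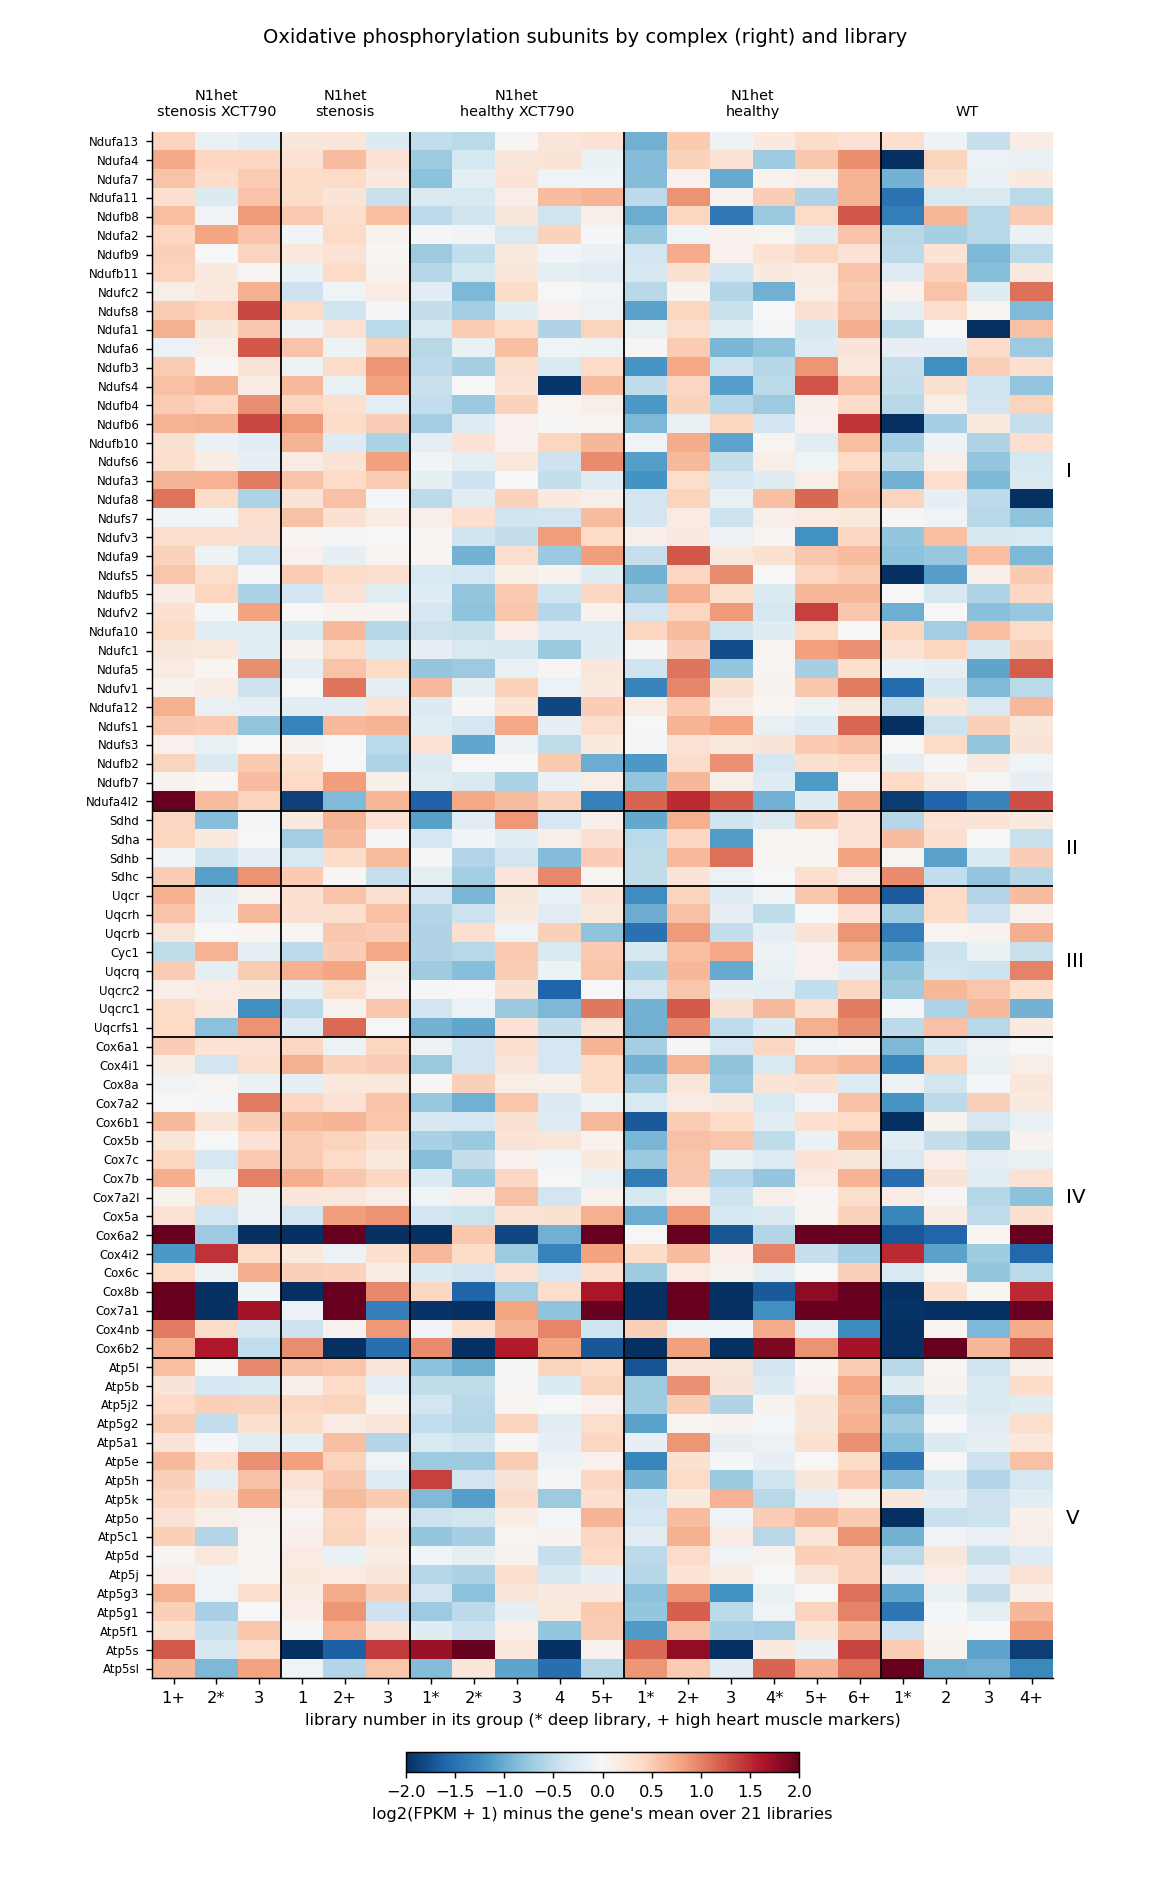
Each row is a tested subunit (1 of the 83 is not shown), ordered by complex (right) and by falling mean level, and each column is 1 library by group; colour is log2(FPKM + 1) minus the gene's mean over 21 libraries, cut at 2 in both directions. Most rows are blue in WT 1 and N1het healthy 1, with exceptions such as Cox4i2 and Sdhc in WT 1. The rows of Cox6a2, Cox8b and Cox7a1 are dark red in the 7 libraries marked with + for high heart muscle markers.

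The muscle isoforms of complex IV split the libraries as the heart muscle markers did. Cox6a2, the heart and skeletal muscle form of subunit 6a, was at 150, 13.9 and 0.951 FPKM in N1het stenosis XCT790 libraries 1 to 3, and at 0.308, 337 and 5.12 FPKM in N1het stenosis libraries 1 to 3. It was at 0.0937, 34.8, 5.96, 11.7 and 195 FPKM in N1het healthy XCT790 libraries 1 to 5, ran from 6.57 to 478 FPKM with a median of 94.3 FPKM in N1het healthy, and was at 6.59, 7.23, 24.5 and 178 FPKM in WT libraries 1 to 4. Every group thus held at least 1 high library, and the groups overlapped. Over the 7 libraries with high heart muscle markers Cox6a2 was between 150 and 478 FPKM, and over the other 14 between 0.0937 and 34.8 FPKM.

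Cox7a1, the muscle form of subunit 7a, was between 40.1 and 180 FPKM in those 7 libraries and between 0 and 31.7 FPKM in the other 14. The highest of the 14 was N1het stenosis XCT790 3 at 31.7 FPKM. Cox8b, the muscle form of subunit 8, was between 41.6 and 189 FPKM in the 7 and between 0 and 28.6 FPKM in the other 14, the highest of these being N1het stenosis 3. The separation was therefore complete for all 3 forms. The libraries were divided by a muscle score, so this is a description and carries no test.

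The widely expressed partners did not separate in this way. Cox6a1 was between 348 and 610 FPKM in the 7 libraries with high heart muscle markers and between 203 and 510 FPKM in the other 14. Cox7a2 was between 194 and 314 FPKM in the 7 and between 91.6 and 430 FPKM in the other 14, and Cox8a between 212 and 325 FPKM and between 150 and 352 FPKM. The muscle form made up 0.0265% to 55.3% of the summed FPKM of Cox6a2 and Cox6a1, 0% to 42.9% of that of Cox7a1 and Cox7a2, and 0% to 41.8% of that of Cox8b and Cox8a. The largest share of each pair was found in N1het healthy 2 or 6.

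**Figure D2:**
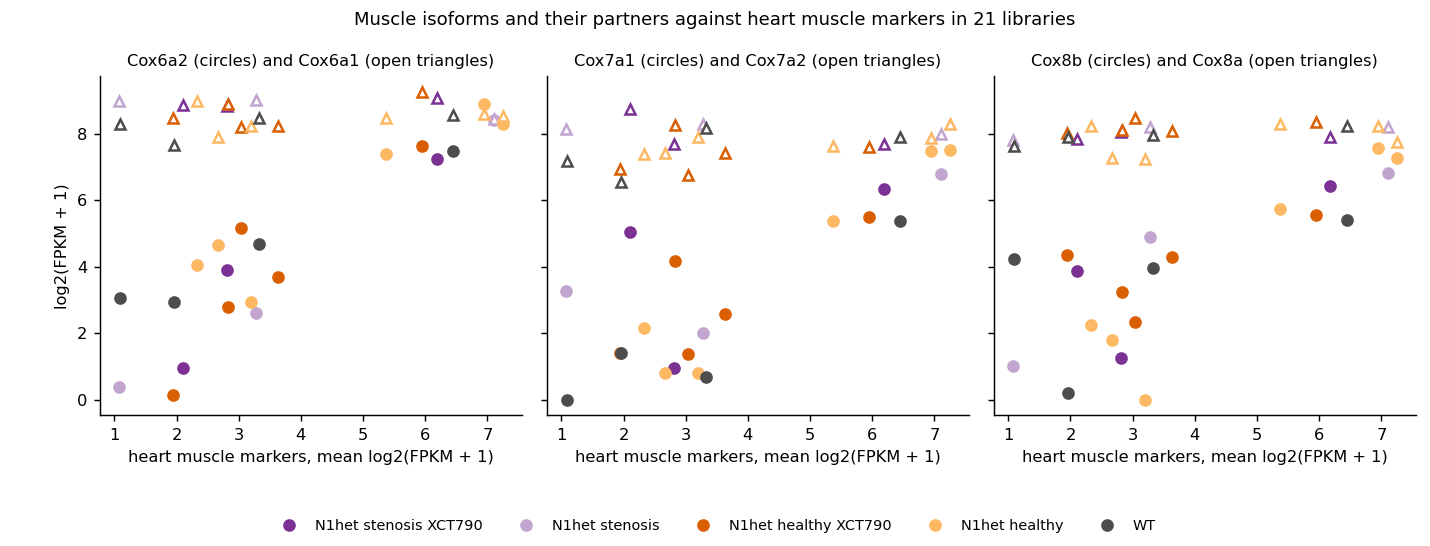
Each panel plots log2(FPKM + 1) of a muscle isoform (circles) and its widely expressed partner (open triangles) against the mean log2(FPKM + 1) of 12 heart muscle markers, with 1 circle and 1 triangle per library and colour by group. The 7 libraries at the right of each panel hold the highest circles, while the triangles span similar levels throughout.

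Within each of the 2 clusters of libraries the marker level was related to 6 isoforms, 12 relations in all. Among the 7 libraries with high markers, Pearson's r was 0.78 for Cox6a2, 0.84 for Cox7a1, 0.77 for Cox8b, -0.38 for Cox6a1, 0.86 for Cox7a2 and -0.49 for Cox8a. The exact permutation p of Cox7a2 was 0.00357 (adjusted over the 12, 0.0428), with Spearman's rho 0.93 (exact permutation p = 0.00675, adjusted 0.081) and r 0.90 without the 2 libraries farthest from the median marker level. No other of the 12 passed after adjustment, the next being the muscle forms at adjusted permutation p of 0.118 for Cox6a2 and Cox7a1. Without those 2 farthest libraries, r among the 7 moved to -0.90 for Cox6a1 and to 0.07 for Cox8a. It was 0.83 for Cox6a2, 0.75 for Cox7a1 and 0.73 for Cox8b. Libraries of all groups were permuted together. Among the 14 libraries with low markers r was between -0.07 and 0.57.

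The remaining pairs showed other patterns. Cox4i2, the lung and hypoxia form of subunit 4, made up 3.36% to 45.7% of its pair with Cox4i1, and was highest in WT 1 (117 FPKM) and N1het stenosis XCT790 2 (112 FPKM), both deep libraries. It also had the lowest correlation of any subunit with the mean of the others, a weak r of -0.25 over 21 libraries that include WT 1. Cox6b2 made up 0% to 17.5% of its pair with Cox6b1 and was listed at 0 in N1het healthy 1 and WT 1, and Ndufa4l2 made up 0.173% to 8.71% of its pair with Ndufa4. The 3 genes for the identical mature subunit c of complex V kept their order in the median: Atp5g2 63.9%, Atp5g3 24% and Atp5g1 11.8% of the summed FPKM.

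Most subunits varied together, several of the isoforms above included. The correlation of a subunit with the mean of the others had a median of 0.63 over the 83, was above 0.5 for 55 of them and below 0 for 2, Cox4i2 and Atp5sl. Cox7a1 stood at 0.83, Cox8b at 0.70 and Cox6a2 at 0.47. The highest values were those of Atp5g3 (0.90), Atp5j2 (0.90), Uqcr (0.89) and Uqcrh (0.88). All points share 21 libraries that differ in depth, so these are descriptions. The 5 other genes most like the mean of the subunits were Rpl36a (0.89), Naca (0.89), RP23-176N13.1 (0.89), AC161807.1 (0.87) and Rps10 (0.87). Rpl36a and Rps10 encode ribosomal proteins and Naca a subunit of the nascent polypeptide-associated complex.

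The common level was lower in the deep libraries. The FPKM summed over all genes was lower there too, from 375595 to 430718, against 473995 to 822546 in the other 15 libraries. The part of this total in the subunits' level was not tested. The median log2(FPKM + 1) over the 83 subunits was 5.21 to 6.13 in the 6 deep libraries and 5.58 to 6.59 in the other 15. For complex IV it was 5.62 to 6.82 in the deep ones and 6.46 to 7.62 in the others. WT 1 held the lowest value of 25 of the 83 subunits and N1het healthy 1 that of 15, while N1het healthy 6 held the highest value of 19 and N1het healthy 2 that of 13. For the group differences, values outside the deep libraries and with depth as a covariate are given where they moved the median. Depth as a covariate means here whether a library belongs to the deep set, and not its number of reads.

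By group, the library median lay between 6.13 and 6.36 in N1het stenosis XCT790 and between 6.15 and 6.38 in N1het stenosis. It lay between 5.45 and 6.18 in N1het healthy XCT790, between 5.21 and 6.59 in N1het healthy, and between 5.31 and 5.98 in WT libraries. All 6 stenotic libraries were above the 4 WT libraries, and they overlapped with N1het healthy, which spread most. The standard deviation of this median between libraries of a group was 0.37, pooled over the 5 groups.

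**Figure D3:**
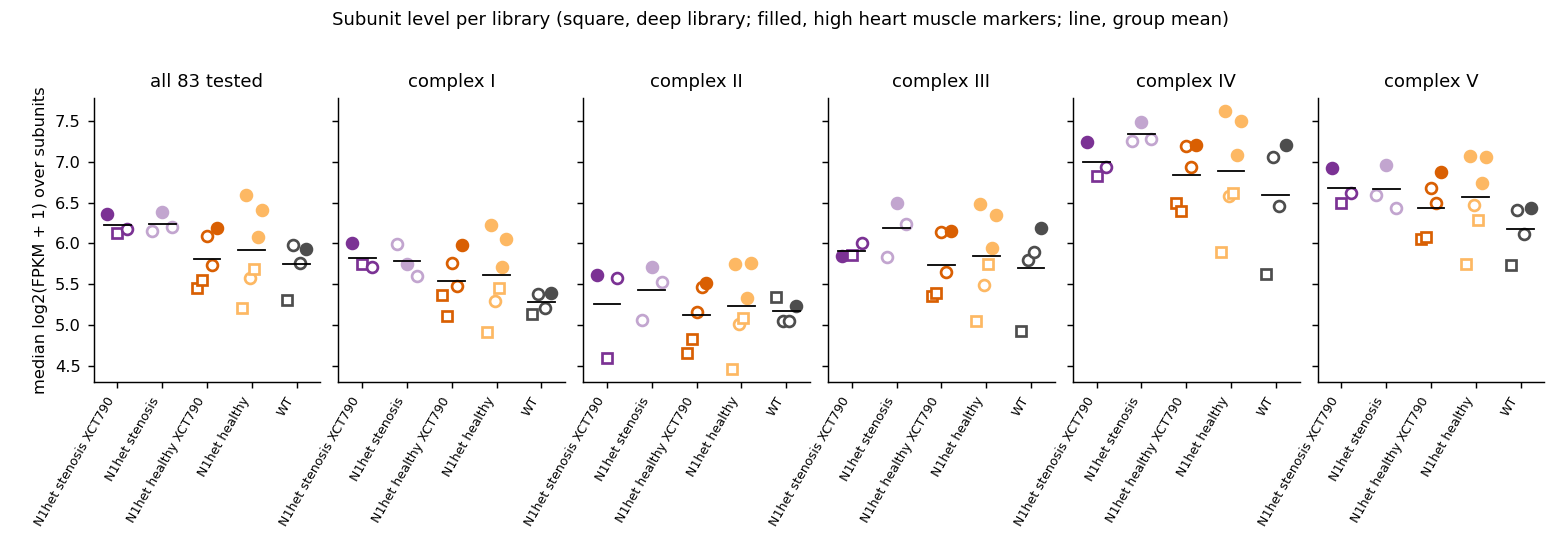
Each point is the median log2(FPKM + 1) of 1 library over all 83 tested subunits (first panel) or those of 1 complex, by group, with squares for deep libraries, filled points for libraries with high heart muscle markers and lines for group means. Deep libraries are the lowest points of several groups, and in the first panel the N1het stenosis XCT790 and N1het stenosis libraries lie between 6.13 and 6.38.

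Differences between groups were tested with limma across all 14966 genes, with p adjusted by the Benjamini-Hochberg method and a threshold of 0.05. None of the 83 subunits passed in any of the 7 contrasts. The authors' deposited table marks 0 of the 84 in its 5 comparisons, by a test not given in the sources used here. Of all 20872 genes it marks 139 in N1het healthy against WT, 281 in N1het stenosis against WT and 262 in N1het stenosis against N1het healthy. Under XCT790 it marks 26 in healthy and 56 in stenotic N1het valves. With so few genes marked, a 0 among 84 says little about the subunits. Differences below are on the log2(FPKM + 1) scale with their SE, and members named are those with the smallest p in each direction.

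N1het stenosis against WT asks how diseased haploinsufficient valves differ from unaffected ones. 71 of the 83 subunits were higher in N1het stenosis (85.5%, against 54.3% of all genes). The median log2 difference was 0.49, against 0.06 over all genes. By complex the median was 0.45 in I (30 of 37 higher), 0.30 in II (3 of 4), 0.53 in III (7 of 8), 0.73 in IV (15 of 17) and 0.45 in V (16 of 17). 0 subunits were called, where 0.0334% of all genes were. At an unadjusted p under 0.05, 13 subunits were higher, 15.7% of them against a background of 6.35%, and 0 were lower, against a background of 4.1%. For 16 subunits, 19.3%, all 3 N1het stenosis libraries lay above all 4 WT libraries, against 5.05% of all genes, and for 0 they lay below, against 3.55%. These 16 were Ndufa2, Ndufa3, Ndufb6, Ndufs6, Ndufs7 and Ndufv1 of complex I, Cox4i1, Cox5b, Cox6b1, Cox6c, Cox7b and Cox7c of complex IV, and Atp5g3, Atp5h, Atp5j2 and Atp5l of complex V.

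Ndufb6, an accessory subunit of the membrane arm of complex I, was at 93.7, 67.3 and 72.6 FPKM in N1het stenosis, against 4.39, 32.1, 58.8 and 36.9 FPKM in WT libraries. The groups did not overlap, and WT 1 stood far below the other 3. Its log2 difference was 1.63 ± 0.57 (SE; limma adjusted p = 0.331), and 0.89 without WT 1. Cox6b1, which lies between the monomers of the complex IV dimer, was at 300.0, 305 and 281 FPKM in N1het stenosis, against 30.5, 200.2, 150 and 172 FPKM in WT libraries. The difference was 1.39 ± 0.52 (adjusted p = 0.368), and 0.77 without WT 1.

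Ndufa3, another accessory subunit of complex I, was at 67.4, 59.4 and 64.4 FPKM in N1het stenosis, against 22.8, 57.2, 23.8 and 36.8 FPKM in WT libraries. It differed by 0.94 ± 0.34 (adjusted p = 0.349), and by 0.77 without WT 1, so WT 1 weighed less here. Cox4i1, the main form of the largest nuclear-encoded subunit of complex IV, was at 561, 472 and 481 FPKM in N1het stenosis, against 139, 470, 311 and 373 FPKM in WT libraries, a difference of 0.77 ± 0.42 (adjusted p = 0.536). The lowest N1het stenosis library and WT 2 were almost level.

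On the lower side of this contrast stood Ndufc2 (-0.49 ± 0.35, adjusted p = 0.669) and Cox6b2 (-1.44 ± 1.31, adjusted p = 0.747). Outside the deep libraries the median over all subunits was 0.33, which compares N1het stenosis with WT 2, 3 and 4, and with depth as a covariate it was 0.35. Of the 12 heart muscle markers 9 were higher in N1het stenosis, with a median of 0.92, and 0 were called. With their level as a covariate the median of the subunits was 0.42. Macrophage markers were higher in N1het stenosis for 6 of 6 genes, with a median of 1.32 and 0 called. Interstitial cell and fibroblast markers were lower for all 8 genes (median -0.28), melanocyte markers higher for 3 of 3 (median 2.20) and red cell markers lower for 3 of 3 (median -1.09), with 0 called. The part of these lists other than heart muscle in the subunits' difference was not tested.

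**Figure D4:**
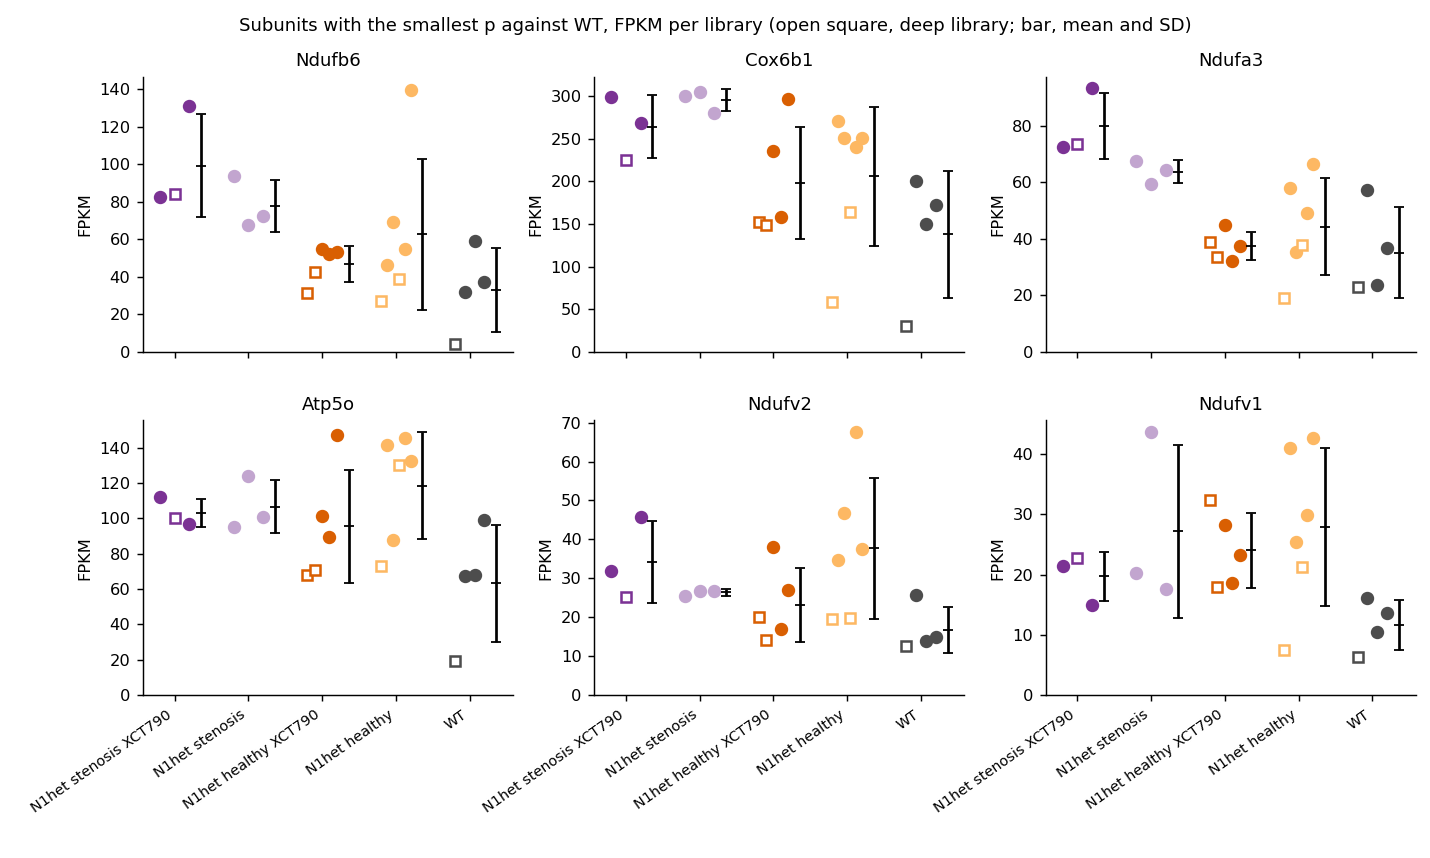
FPKM of 6 subunits in each library by group, with open squares for deep libraries and, beside the points, the group mean with its SD. In the upper row (Ndufb6, Cox6b1, Ndufa3) all 3 N1het stenosis libraries lie above all WT libraries, and in the lower row (Atp5o, Ndufv2, Ndufv1) N1het healthy and WT libraries overlap, with WT 1 lowest among the WT libraries in each panel.

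In valves labelled healthy, N1het against WT asks for the difference that goes with losing 1 Notch1 copy. 68 of the 83 subunits were higher in N1het healthy (81.9%, against 57.6% of all genes). The median log2 difference was 0.30, against 0.09 over all genes. The median was 0.31 in complex I (29 of 37 higher), 0.09 in II (2 of 4), 0.16 in III (6 of 8), 0.30 in IV (15 of 17) and 0.36 in V (16 of 17). 0 subunits were called, as were 0% of all genes. At an unadjusted p under 0.05, 11 subunits were higher (13.3%, against a background of 5.29%) and 0 lower (background 2.13%). For 0 subunits did the groups separate, against 0.862% of all genes with N1het healthy above and 0.294% with it below. Without WT 1 the median was 0.13, without N1het healthy 2 it was 0.18, and without N1het healthy 6 it was 0.19. Outside the deep libraries it was 0.45, with 19 subunits at an unadjusted p under 0.05.

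Atp5o, the OSCP subunit that ties the catalytic head of the ATP synthase to its stator, ran from 72.9 to 146 FPKM with a median of 132 FPKM in N1het healthy, against 19, 67.4, 67.8 and 99.1 FPKM in WT libraries. Its log2 difference was 1.06 ± 0.33 (adjusted p = 0.477), and 0.57 without WT 1. Ndufv2 and Ndufv1 form the part of complex I that takes electrons from NADH. Ndufv2 ran from 19.5 to 67.7 FPKM with a median of 36.2 FPKM in N1het healthy, against 12.6, 25.6, 13.9 and 14.8 FPKM in WT libraries (1.05 ± 0.33, adjusted p = 0.477). Ndufv1 ran from 7.50 to 42.6 FPKM with a median of 27.6 FPKM in N1het healthy, against 6.34, 16.1, 10.5 and 13.7 FPKM in WT libraries (1.09 ± 0.38, adjusted p = 0.529). In both, the lower N1het healthy values overlapped with the WT libraries.

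Lower in N1het healthy, none of them past the threshold, were Ndufc2 (-0.60 ± 0.30), Ndufb7 (-0.33 ± 0.30) and Sdha, the flavoprotein of complex II (-0.26 ± 0.29), with adjusted p of 0.687, 0.841 and 0.88. Heart muscle markers were higher in N1het healthy for 11 of 12 genes, with a median log2 difference of 1.61 and 0 called. 3 of the 6 N1het healthy libraries and 1 of the 4 WT libraries were among the 7 with high markers. With the marker level as a covariate the median of the subunits was 0.13. Smooth muscle markers were lower for 5 of 5 genes (median -1.34) and melanocyte markers higher for 3 of 3 (median 1.05), with 0 called, and their part was not tested.

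The 3 contrasts among N1het stenosis, N1het healthy and WT share libraries, so their values are given side by side only. In stenotic against healthy N1het valves 54 of 83 subunits were higher in N1het stenosis (65.1%, against 46.8% of all genes). The median log2 difference was 0.15, against -0.04 over all genes. The median was 0.02 in complex I, 0.06 in II, 0.25 in III, 0.35 in IV (14 of 17 higher) and 0.11 in V. 0 subunits were called, against 0.0334% of all genes. In the main fit 0 reached an unadjusted p under 0.05 in either direction, against 4.59% of genes higher and 5.01% lower. Some other fits gave more, among them 6 with the heart muscle markers as a covariate and 10 with replicate numbers as a block. The share of all genes was not counted for those fits. For 1 subunit, Cox6b1, the 3 N1het stenosis libraries were all above the 6 N1het healthy ones (1.2%, against 2.72% of all genes), and for 0 they were all below (against 2.74%).

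Cox6b1 ran from 281 to 305 FPKM in N1het stenosis, against 58.5 to 271 FPKM with a median of 245 FPKM in N1het healthy. The smallest p on the higher side belonged to Ndufb7 (0.67 ± 0.33, adjusted p = 0.539), Ndufa3 (0.61 ± 0.31, adjusted p = 0.557) and Uqcrq (0.74 ± 0.40, adjusted p = 0.59), the first 2 in complex I and the third in complex III. On the lower side were Ndufa4l2 (-1.26 ± 0.75, adjusted p = 0.651) and Ndufs3 (-0.47 ± 0.30, adjusted p = 0.682). Ndufs3 is a core subunit of complex I. No deep library is in N1het stenosis, against 2 of 6 in N1het healthy, and outside the deep libraries the median was -0.03. Without N1het healthy 1 it was 0.05, and without N1het stenosis 1 it was 0.26, and without N1het healthy 2 or 6 it was 0.24. Heart muscle markers were lower in N1het stenosis for all but 2 of 12 genes (median -0.85) and macrophage markers higher for 6 of 6 (median 1.52), with 0 called. With the heart muscle markers as a covariate the median of the subunits was 0.25, and with depth as a covariate 0.0043. Interstitial cell and fibroblast markers were lower in N1het stenosis for all 8 genes (median -0.53), melanocyte markers higher for 3 of 3 (median 1.27) and red cell markers lower for 3 of 3 (median -1.204), with 0 called. The part of the macrophage, fibroblast, melanocyte and red cell markers in the subunits was not tested.

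XCT790 was compared with solvent in each valve state, since its target ERRα acts on these genes. In healthy N1het valves 22 of 83 subunits were higher (26.5%, against 54.0% of all genes) and 61 lower under XCT790. The median log2 difference was -0.17, against 0.03 over all genes. The median was -0.23 in complex I (28 of 37 lower), -0.02 in II, -0.24 in III (7 of 8 lower), -0.13 in IV and -0.18 in V (14 of 17 lower). 0 subunits were called, as were 0% of all genes. At an unadjusted p under 0.05, 3 were lower (3.61%, against a background of 1.02%) and 0 higher (background 1.63%). For 0 subunits did the groups separate, against 0.18% of all genes higher and 0.0869% lower. The median moved with single libraries, between -0.35 without N1het healthy 1 and -0.06 without N1het healthy 6, and was -0.07 without N1het healthy 2 and -0.10 without N1het healthy XCT790 2.

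The 3 lower ones were Atp5sl, Ndufb9 and Ndufs3. Atp5sl was at 1.20, 3.70, 0.954, 0.427 and 1.72 FPKM in N1het healthy XCT790, against 2.45 to 8.02 FPKM with a median of 5.95 FPKM in N1het healthy. Only the highest XCT790 library reached into the solvent range, and the difference was -1.44 ± 0.56 (limma adjusted p = 1). Under its RefSeq name Dmac2 it is known as an assembly factor of complex I. Ndufb9, an accessory subunit of complex I, was at 77.8, 91.6, 147, 124 and 118 FPKM in N1het healthy XCT790, against 98.4 to 216 FPKM with a median of 159 FPKM in N1het healthy (-0.48 ± 0.22, adjusted p = 1). Ndufs3 differed by -0.54 ± 0.26 (adjusted p = 1).

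On the higher side were Cox8a (0.37 ± 0.20), Atp5h, a stalk subunit of complex V (0.48 ± 0.30), and Ndufb10 (0.25 ± 0.30), each at an adjusted p of 1. Atp5h was at 265 FPKM in the deep library N1het healthy XCT790 1, against 78.4, 122, 99.2 and 136 FPKM in the rest of its group. Over the alternatives and left-out libraries its difference ran from 0.11 to 0.66. Outside the deep libraries the median of the subunits was -0.22. All 12 heart muscle markers were lower under XCT790, with a median of -1.19 and 0 called, and with their level as a covariate the median of the subunits was -0.04. Endothelial markers were lower for 6 of 6 (median -0.56) and red cell markers for 3 of 3 (median -0.91), while macrophage markers were higher for 6 of 6 (median 0.60) and smooth muscle markers for 5 of 5 (median 0.83). None of these was called, and their part in the subunits was not tested. Grouped by the contradicting agent field, which leaves 2 libraries under XCT790 against 9 under solvent, it was 0.10.

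In stenotic N1het valves 45 of 83 subunits were higher under XCT790 (54.2%, near the 57.6% of all genes). The median log2 difference was 0.04, against 0.09 over all genes. Under median-of-ratios scaling the median was -0.04, and over the libraries left out in turn it ran from -0.10 without N1het stenosis XCT790 1 to 0.12 without N1het stenosis XCT790 2. It was also -0.04 without N1het stenosis 1, -0.05 without N1het stenosis 3, 0.07 without N1het stenosis 2 and -0.00064 without N1het stenosis XCT790 3, so no direction is given. Outside the deep libraries it was 0.12 and with depth as a covariate 0.20. Heart muscle markers were higher under XCT790 for 4 of 12 genes (median -0.50) and macrophage markers lower for 6 of 6 (median -0.37), with 0 called. By complex it was 0.12 in I, -0.18 in II, -0.21 in III, -0.07 in IV and 0.04 in V. 0 subunits and 0% of all genes were called, and 0 subunits reached an unadjusted p under 0.05, against 2.53% of genes higher and 0.815% lower. For 5 subunits of complex I (Ndufa2, Ndufa3, Ndufb4, Ndufs8 and Ndufv3) the 3 XCT790 libraries were all above the 3 solvent libraries (6.02%, against 6.09% of all genes). For 3 (Atp5j, Cox4i1 and Cox5b) they were all below (3.61%, against 2.66%). Both shares were near their background.

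Ndufa4l2 was at 23.3, 7.11 and 6.11 FPKM in N1het stenosis XCT790, against 0.431, 1.84 and 7.30 FPKM in N1het stenosis. The ranges overlapped, and the difference was 1.79 ± 0.87 (adjusted p = 1). Ndufs8, an iron-sulphur subunit of the complex I core, was at 119, 112 and 211 FPKM in N1het stenosis XCT790, against 108, 62.9 and 81.9 FPKM in N1het stenosis (0.77 ± 0.39, adjusted p = 1). Ndufa2 differed by 0.46 ± 0.27. Cox4i1 was at 382, 264 and 440 FPKM in N1het stenosis XCT790, against 561, 472 and 481 FPKM in N1het stenosis (-0.51 ± 0.45, adjusted p = 1), and Sdhd (-0.55 ± 0.45) and Cox5a (-0.52 ± 0.46) were also on the lower side.

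**Figure D5:**
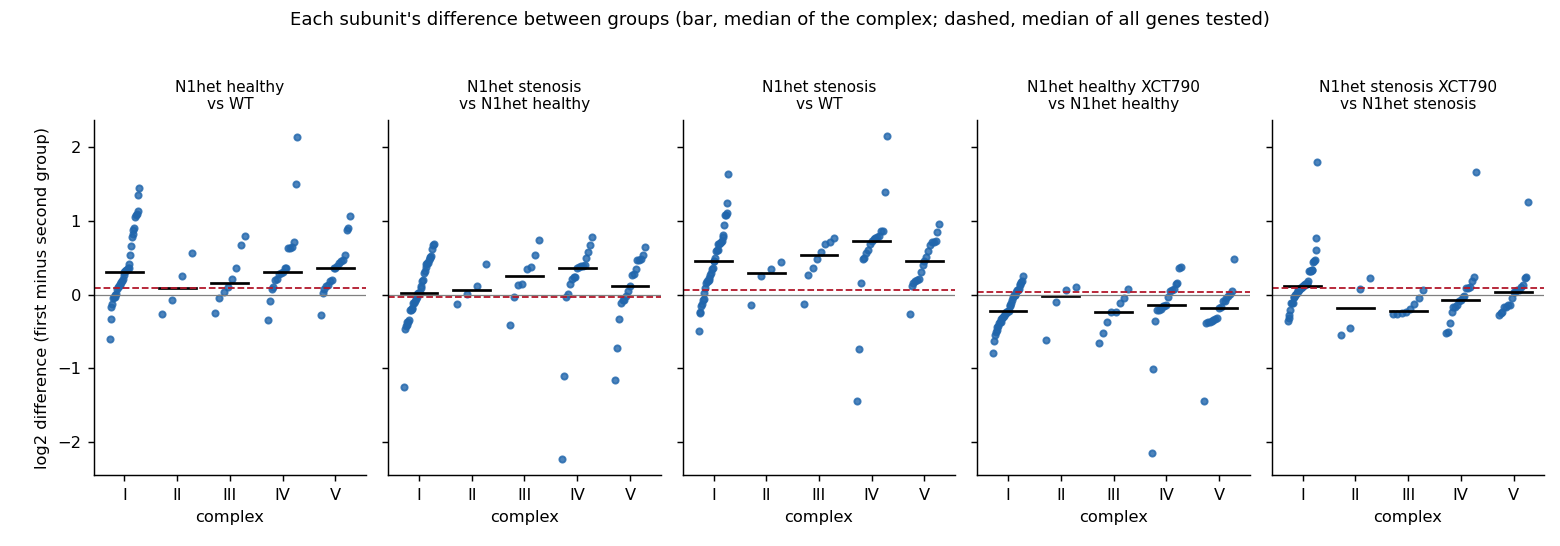
Each point is the log2 difference of 1 subunit in 1 of 5 contrasts, the first named group minus the second, by complex, with black bars for the median of the complex and a dashed line for the median over all 14966 genes tested. Most points lie above the dashed line in N1het stenosis against WT and below it in N1het healthy XCT790 against N1het healthy, and none passed the threshold.

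Averaged over healthy and stenotic valves, 57 of 83 subunits were lower under XCT790, and 31.3% were higher, against 59.2% of all genes. The median was -0.10, against 0.06 over all genes. 0 subunits were called and 0 reached an unadjusted p under 0.05, against 0% of genes called, 2.41% higher and 0.815% lower. In complex III all 8 subunits were lower, with a median of -0.20, from -0.04 ± 0.22 for Uqcrh, the hinge protein, to -0.44 ± 0.35 for Uqcrc1, a core protein (adjusted p = 1). The 95% intervals of all 8 included 0. The median over all subunits was -0.03 without N1het stenosis 2 or N1het healthy 2, -0.05 without N1het healthy 6, N1het healthy XCT790 2 or N1het stenosis XCT790 2, and -0.16 without N1het healthy 1, N1het healthy XCT790 3 or N1het healthy XCT790 5. It was -0.06 outside the deep libraries, -0.0024 with depth as a covariate, and -0.02 with the heart muscle markers as a covariate.

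Sdhb, the iron-sulphur subunit of complex II, had the smallest p of this average. It was at 23.5, 18.3 and 21.1 FPKM in N1het stenosis XCT790, against 19.6, 31.8 and 38.3 FPKM in N1het stenosis. In healthy valves it was at 23.9, 16, 18.8, 13 and 34.9 FPKM in N1het healthy XCT790, against 16.9 to 53.7 FPKM with a median of 31.9 FPKM in N1het healthy. The ranges overlapped in both valve states. The averaged difference was -0.53 ± 0.27 (adjusted p = 1), with a 95% interval from -1.09 to 0.02. Atp5j (-0.27 ± 0.17) and Atp5c1, the rotor shaft of the ATP synthase (-0.33 ± 0.24), followed. Ndufa2 (0.27 ± 0.17), Ndufb4 (0.29 ± 0.24) and Atp5h (0.29 ± 0.25) were the first on the higher side. The Atp5h average includes N1het healthy XCT790 1 and ran from 0.16 to 0.41 over the alternatives and left-out libraries.

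Neither of the 2 genes with an ERR element in the printed promoters passed the threshold under XCT790. Atp5g3 differed under XCT790 by -0.09 ± 0.35 in healthy and by -0.14 ± 0.47 in stenotic valves, and Sdhd by -0.10 ± 0.33 and -0.55 ± 0.45, each at an adjusted p of 1. The value of Sdhd in stenotic valves was the lowest of the 83 subunits in that contrast. The averaged difference had a 95% interval from -0.72 to 0.49 for Atp5g3 and from -0.90 to 0.26 for Sdhd. A value that misses the threshold does not show that XCT790 left these genes as they were.

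The test of whether the XCT790 difference itself differed between stenotic and healthy valves also called 0 subunits and 0% of all genes. 58 of 83 were above 0 (69.9%, against 54.0% of all genes), with a median of 0.19, against 0.05 over all genes. At an unadjusted p under 0.05, 2 were higher (2.41%, against a background of 2.02%) and 0 lower (background 0.962%). The 2 were Ndufa4l2 (2.58 ± 1.08, adjusted p = 1) and Ndufs8 (1.02 ± 0.48, adjusted p = 1), followed by Ndufv2 (0.95 ± 0.52). Cox8a (-0.51 ± 0.34), Cox5a (-0.66 ± 0.57) and Ndufs6 (-0.50 ± 0.48) stood on the other side. The median was 0.09 without N1het healthy 6, 0.11 without N1het healthy 2 or N1het healthy XCT790 2 and 0.33 without N1het healthy 1. Outside the deep libraries it was 0.31, and with depth as a covariate 0.35.

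Complex II, which also belongs to the citric acid cycle, has no subunit encoded by mitochondrial DNA. Sdha was at 32.4, 82.2 and 53.6 FPKM in N1het stenosis, ran from 23.8 to 71.2 FPKM with a median of 55.0 FPKM in N1het healthy, and was at 81.6, 66.4, 52.5 and 38.5 FPKM in WT libraries. Sdhc was at 32.1, 22.4 and 15.8 FPKM in N1het stenosis, ran from 15.2 to 27.9 FPKM with a median of 23.6 FPKM in N1het healthy, and was at 43.7, 15.4, 12.4 and 14.6 FPKM in WT libraries. The groups overlapped for both, and WT 1, low for many subunits of the other complexes, was the highest WT library. In N1het stenosis against WT the differences were -0.13 ± 0.35 for Sdha, 0.44 ± 0.40 for Sdhb, 0.25 ± 0.46 for Sdhc and 0.34 ± 0.42 for Sdhd (adjusted p from 0.748 to 0.934). Averaged over valve states, XCT790 differed from solvent by 0.16 ± 0.23 for Sdha, 0.07 ± 0.30 for Sdhc and -0.32 ± 0.28 for Sdhd (adjusted p = 1 for each).

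Of the catalytic genes of the other complexes, Ndufs1, the largest iron-sulphur subunit of complex I, was at 0.599 FPKM in WT 1, against 9.56 to 18.8 FPKM in the other WT libraries, and ran from 10.9 to 30.6 FPKM in N1het healthy (1.09 ± 0.56 in N1het healthy against WT, adjusted p = 0.693). Cyc1, cytochrome c1 of complex III, ran from 49.99 to 108 FPKM with a median of 81.0 FPKM in N1het healthy, against 29.6, 46.4, 57.3 and 45.6 FPKM in WT libraries. WT 3 reached into the N1het healthy range, and the difference was 0.80 ± 0.32 (adjusted p = 0.585). Atp5b ran from 96.5 to 299 FPKM with a median of 180 FPKM in N1het healthy, against 135, 167, 129 and 205 FPKM in WT libraries, which lay within that range (0.20 ± 0.28, adjusted p = 0.907).

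Other genes of the pathway were counted from lists of assembly factors, electron carriers, catalytic subunits and regulators, and in all 7 contrasts 0 of each list were called. Of 24 tested assembly factors of the 5 complexes, those of complex I were higher in N1het stenosis than in WT for 8 of 9 (median 0.15) and in N1het healthy than in WT for 5 of 9 (0.18). Those of complex IV were higher for 6 of 9 (0.05) in N1het stenosis and for 7 of 9 (0.36) in N1het healthy, each against WT. In N1het stenosis against WT the factors of complexes II and III were higher for 0 of 1 and 0 of 2, and those of V for 1 of 3 (median -0.78). The electron carriers with the ATP synthase inhibitor, among them Cycs, which encodes cytochrome c, and Atpif1, were higher in N1het stenosis than in WT for 8 of 9 (median 0.28) and than in N1het healthy for 5 of 9 (0.0071). The 13 catalytic subunits had medians of 0.37 in N1het stenosis against WT, 0.34 in N1het healthy against WT and -0.18 under XCT790 averaged over valve states. In N1het stenosis against N1het healthy only 5 of the 13 were higher, with a median of -0.08.

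The mitochondrially encoded subunits did not follow the sign of the nuclear ones in every contrast. All 7 listed rows of 6 genes were lower in N1het healthy than in WT, with a median of -1.26, and higher in N1het stenosis than in N1het healthy, with a median of 1.67. They were higher in N1het stenosis than in WT for 7 of 7, with a median of 0.45. Under XCT790 all 7 were lower, with medians of -0.41 in healthy and -1.31 in stenotic valves, and 0 were called. Their level went with depth, as the read shares given above show. Outside the deep libraries their mean log2(FPKM + 1) overlapped between the groups, from 11.98 to 14.06 in N1het stenosis, from 11.29 to 14.06 in N1het healthy and from 12.54 to 14.504 in WT libraries.

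Among the regulators, Esrra, which encodes ERRα, was low in every library, between 0.364 and 3.46 FPKM. Under XCT790 its log2 difference was 0.29 ± 0.31 in healthy and 0.27 ± 0.42 in stenotic valves (adjusted p = 1). Ppargc1a, which encodes PGC-1α, ran from 0.669 to 13.2 FPKM and was highest in N1het healthy 6 and N1het stenosis 2 (11.9 FPKM), both among the libraries with high heart muscle markers. Its difference averaged over valve states was 0.01 ± 0.46 under XCT790 (adjusted p = 1). Of 8 tested regulators 2 were higher and 6 lower in N1het stenosis than in WT, with a median of -0.36 and 0 called.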

How the data were processed

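Total RNA of mouse aortic valves was sequenced in 21 libraries. The authors deposited FPKM per gene, with their own 0 or 1 marks of change as a score per comparison, per the file headers. Picard, SAMtools, HISAT2, FastQC and the mm9 build appear in the submitters' processing notes, without versions, and no source used here gives the counting step. Per the labels' protocols, RNA was amplified with the NuGEN Ovation V2 kit, so low transcripts can vary by amplification.

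FPKM values were whole multiples of the value of 1 read in 100% of nonzero cases (within 0.01 reads), which gave depths of 8.4 to 27.3 megareads. Values were tested as log2(FPKM + 1) with limma 3.58.1 (R 4.3.3, statmod 1.5.0; trend and robust empirical Bayes) on genes with a mean of 1 FPKM or more (5906 left out), with 5 group means, 7 contrasts and Benjamini-Hochberg adjustment over all genes. The pseudocount understates differences of low genes. The fit was tested on simulated data. Correlations used scipy 1.17.1 (Python 3.11.15), exact or with 100000 resamples. Groups follow the sample titles. p-values measure the spread between libraries, which may be technical.

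Named genes were the paired isoforms, the 3 smallest p in each direction of each contrast, the highest, lowest, most and least variable gene of each complex, complex II, 6 catalytic genes and the 5 genes most like the subunits' mean. Genes whose groups did not overlap and outlying values were named in addition. The members and lists were chosen with earlier results of these data known. For 1 subunit, single values are not reported here; counts and medians include it. Alternatives changed the pseudocount, filter, scaling, covariates, groups by agent field, left-out libraries and the test (voom on recovered reads).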

Additional observations from a re-analysis of the deposited data

Results flagged for a closer look

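Among 135 groups of 4 to 6 libraries, checked over 44 genes and the subunits' median, 10 held a library far from the others. Chance would flag about 1 in 20 of independent groups. These share libraries and subunits that vary together, and genes were checked in FPKM, so the 10 are not weighed against that rate. WT 1 was highest for Atp5sl at 21.3 FPKM, with the other WT libraries between 0.652 and 1.08 FPKM. It was also highest for Cox4i2 at 117 FPKM (others 13 to 24.4 FPKM) and for Sdhc at 43.7 FPKM (others 12.4 to 15.4 FPKM), and lowest for Sdhd at 36 FPKM (others 61.3 to 65.6 FPKM). WT 1 is the deep library of its group.

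WT 4, the WT library with high heart muscle markers, was highest for Cox6a2 at 178 FPKM (others 6.59 to 24.5 FPKM), for Cox7a1 at 40.5 FPKM (others 0 to 1.66 FPKM), for Ndufa4l2 at 11.7 FPKM (others 0.404 to 1.09 FPKM) and for Uqcrq at 103 FPKM (others 29.0 to 39.1 FPKM). N1het healthy XCT790 5, the library of its group with high heart muscle markers, was highest for Cox6a2 at 195 FPKM (others 0.0937 to 34.8 FPKM). WT 2 was highest for Ndufv2 at 25.6 FPKM (others 12.6 to 14.8 FPKM).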

How the results depend on the processing

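Under every alternative run, 0 subunits were called in each contrast, and no value crossed the threshold. Among the named genes 1 changed sign, Ndufb10 in N1het healthy XCT790 against N1het healthy, at -0.0768 under voom with sample quality weights. Medians also changed sign, as given with their contrasts: N1het stenosis against N1het healthy was -0.03 outside the deep libraries, XCT790 in healthy valves 0.10 by the agent field, and XCT790 in stenotic valves -0.04 under median-of-ratios scaling and below 0 when any 1 of 4 libraries was left out. Medians that moved by over 1.5 times and are not given with their contrast were as follows. Under voom with sample quality weights they were 0.50 in N1het healthy against WT, 0.02 in N1het stenosis against N1het healthy, -0.43 under XCT790 in healthy and 0.0059 in stenotic valves, -0.19 averaged and 0.36 for the interaction. Voom alone gave 0.01 under XCT790 in stenotic valves, and median-of-ratios scaling -0.16 for the average. With the heart muscle markers as a covariate, the interaction was 0.09. The causes were not tested. Leaving out 1 library each, medians ran from 0.13 to 0.42 in N1het healthy against WT and from 0.33 to 0.57 in N1het stenosis against WT. Libraries with the same replicate number were on average hardly more alike than others (mean r 0.010 over 34 same-numbered pairs and -0.0026 over 139 others). The r ran from -0.11 to 0.13 and from -0.18 to 0.24, and whether single pairs belong together was not tested. With replicate numbers as a replicate block 0 subunits were called. The medians were 0.11 in N1het healthy against WT, 0.39 in N1het stenosis against N1het healthy and 0.51 in N1het stenosis against WT. They were -0.06 and 0.04 under XCT790 in healthy and stenotic valves, -0.05 averaged and 0.09 for the interaction. Over all genes 19 were called in N1het stenosis against N1het healthy and 3 in N1het stenosis against WT, against 5 each without the block. Under the agent field only N1het healthy against WT (0.23) and XCT790 in healthy valves could be formed. Subunits had a median of 967 reads in a library, and counting error weighs most on the 1.61% of values under 10 reads.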
